A study of Homo sapiens with 3 samples.

Results

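Antisense long noncoding RNA genes were examined as a class in the gene tables of 3 RNA-seq libraries. The members were all rows on references whose own name holds no '_' and whose gene name ends in -AS1, -AS2 or -AS3, with TP73-AS1 left out. There were 1133 such rows among 39320, of which 1027 ended in -AS1, 87 in -AS2 and 19 in -AS3. They carried 1132 names, because ASMTL-AS1 had a row on X and another on Y. A partner row, named by the part before -AS and on the same reference, existed for 1116 antisense rows and made 1116 pairs with 1033 partners. Several pairs therefore shared a partner and were not independent of each other.

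The series came from a study of splice variants of METTL3, an RNA methyltransferase, in hepatocellular carcinoma. It held polyadenylated RNA from HepG2, a human line derived from a liver cancer, labelled with a WT genotype and with no treatment. The 3 libraries, replicates 1 to 3, formed 1 condition, so no comparison between conditions could be made. Nothing in the labels says that the replicates came from separate cultures, and the errors given here measure only the spread between these 3 libraries.

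The label was checked against markers of hepatocytes, and the data went against it. All 12 hepatocyte markers, ALB and APOA1 among them, were under 1 TPM in the 3 libraries, and 9 were listed at 0 in each. Their summed level was between 0.0571 and 0.244 TPM per library. Of the markers of other cell types, 3 of 3 blood genes were under 1 TPM in the 3 libraries, with sums between 0.819 and 0.997 TPM. Of 3 fibroblast genes, 2 were under 1 TPM, and the sum was 6.38 to 7.45 TPM. The samples are therefore called the libraries labelled HepG2.

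An antisense gene is transcribed from the strand opposite to the gene it is named after. Some start beside the partner's own start and run away from it, some lie inside the partner, and some run into its end. Many such RNAs are short-lived because the nuclear RNA exosome degrades them, while others are spliced, polyadenylated and stable. A few act on the neighbouring gene, and for most no role is known. Of 16 genes of the nuclear exosome and its adaptors, 15 were at 10 TPM or more and all 16 at 1 TPM or more in each library. Among all rows, 20.7% reached 10 TPM and 33.8% reached 1 TPM in all 3 libraries. The share of protein-coding rows at 1 TPM or more was 59.6%. Whether decay affected the levels of the antisense rows was not tested.

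The 300 bases around the 5′ end of 5 antisense genes are shown because the results turn on how much RNA the rows had and where they start. Each sequence holds 250 bases before the 5′ end of the deposited row and the 50 bases from it on, is read 5′ to 3′ on the strand of the antisense gene in GRCh38, and has every CpG in capitals. FGD5-AS1, ELFN1-AS1 and THAP9-AS1 were among the most abundant rows and among the highest above their partner. RPL34-AS1 and GNAS-AS1 had, by TPM, the most abundant partners relative to their own level.
FGD5-AS1 (chr3:14948392-14948691, minus strand): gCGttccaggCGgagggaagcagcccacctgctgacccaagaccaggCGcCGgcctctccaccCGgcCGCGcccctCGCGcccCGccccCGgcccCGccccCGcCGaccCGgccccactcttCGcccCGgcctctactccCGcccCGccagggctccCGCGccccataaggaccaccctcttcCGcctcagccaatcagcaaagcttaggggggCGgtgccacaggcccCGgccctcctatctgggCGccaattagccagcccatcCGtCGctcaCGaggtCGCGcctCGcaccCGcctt
ELFN1-AS1 (chr7:1742261-1742560, minus strand): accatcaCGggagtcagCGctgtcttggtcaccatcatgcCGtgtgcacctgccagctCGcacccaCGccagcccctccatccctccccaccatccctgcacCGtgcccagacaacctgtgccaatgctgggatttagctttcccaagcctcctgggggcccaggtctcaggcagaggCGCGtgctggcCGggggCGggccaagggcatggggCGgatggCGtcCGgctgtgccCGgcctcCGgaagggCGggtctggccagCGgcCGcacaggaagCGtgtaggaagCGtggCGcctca
THAP9-AS1 (chr4:82900867-82901166, minus strand): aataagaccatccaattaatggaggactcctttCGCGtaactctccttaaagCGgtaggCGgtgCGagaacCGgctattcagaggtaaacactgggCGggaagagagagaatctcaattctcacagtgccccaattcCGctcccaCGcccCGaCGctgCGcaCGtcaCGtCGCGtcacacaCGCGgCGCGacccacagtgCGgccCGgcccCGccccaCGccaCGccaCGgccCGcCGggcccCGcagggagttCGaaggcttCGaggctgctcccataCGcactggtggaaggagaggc
RPL34-AS1 (chr4:108620408-108620707, minus strand): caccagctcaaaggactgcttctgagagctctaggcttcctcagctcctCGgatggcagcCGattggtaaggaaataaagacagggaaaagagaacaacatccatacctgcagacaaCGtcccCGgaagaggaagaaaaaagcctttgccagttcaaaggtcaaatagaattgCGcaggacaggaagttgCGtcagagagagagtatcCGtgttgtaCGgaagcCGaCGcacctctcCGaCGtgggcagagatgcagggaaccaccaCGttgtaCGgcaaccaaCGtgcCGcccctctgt
GNAS-AS1 (chr20:58850854-58851153, minus strand): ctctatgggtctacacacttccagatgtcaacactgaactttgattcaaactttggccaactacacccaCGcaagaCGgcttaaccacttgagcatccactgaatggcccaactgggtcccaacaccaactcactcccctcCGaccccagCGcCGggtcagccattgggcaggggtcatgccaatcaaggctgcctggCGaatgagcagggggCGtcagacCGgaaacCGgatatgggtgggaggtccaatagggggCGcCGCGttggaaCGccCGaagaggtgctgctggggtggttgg

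The sequences held 32 CpG in FGD5-AS1, 21 in ELFN1-AS1, 32 in THAP9-AS1, 16 in RPL34-AS1 and 14 in GNAS-AS1. The counts of single rows did not follow their level throughout, since MIF-AS1, the highest row, had 5 CpG and IGFL2-AS1 had 0, while ENO1-AS1 and BASP1-AS1 had 31 each and SLC25A5-AS1 had 40. THAP9-AS1 and THAP9 start 266 bases apart and overlap at their 5′ ends, so the window of THAP9-AS1 lies within THAP9. RPL34-AS1 and RPL34 start 101 bases apart without overlap, so the window of RPL34-AS1 also covers the start of RPL34.

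Levels were given as TPM, a relative abundance of transcripts that is scaled for gene length and sums to the same total in each library. The number of antisense rows at 1 TPM or more was 253, 251 and 253 in replicates 1, 2 and 3, and 224 of 1133 rows, or 19.8%, reached it in all 3 libraries. These 224 are called expressed below. Among all 39320 rows the share was 33.8%. A level of 10 TPM was reached in all 3 libraries by 32 antisense rows, or 2.82%, against 20.7% of all rows. Only MIF-AS1 reached 100 TPM. At the other end, 449 antisense rows, or 39.6%, were listed at 0 in each library, against 40.7% of all rows.

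Antisense rows stood between protein-coding genes and the remaining long noncoding RNA genes. By the biotypes of the RefSeq table, 11152 of 18723 protein-coding rows, or 59.6%, had at least 1 TPM in all 3 libraries. Among 10621 other long noncoding RNA rows the count was 531, or 5.0%, and 69.9% were listed at 0 throughout. All antisense rows together held 0.189%, 0.196% and 0.188% of the TPM of replicates 1, 2 and 3. Without MIF-AS1 these shares were 0.151%, 0.156% and 0.150%.

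The highest antisense row was MIF-AS1, on the minus strand at chr22:23893710-23898930, with 380, 405 and 380 TPM in replicates 1, 2 and 3. Its partner MIF, which encodes a widely expressed cytokine, was given 0.359, 0 and 0 TPM. Most of MIF lies inside an exon of MIF-AS1, and 687 exonic bases, 94.1% of those of MIF in GENCODE v44, belong to both genes on opposite strands. The strand setting of the counting is not given in the sources used here, so reads of the antisense RNA and of MIF mRNA in these bases cannot be told apart. The bases in question include the whole second exon of MIF, chr22:23894772-23894944, printed here in capitals on the plus strand with 20 bases on either side in GRCh38.
MIF second exon: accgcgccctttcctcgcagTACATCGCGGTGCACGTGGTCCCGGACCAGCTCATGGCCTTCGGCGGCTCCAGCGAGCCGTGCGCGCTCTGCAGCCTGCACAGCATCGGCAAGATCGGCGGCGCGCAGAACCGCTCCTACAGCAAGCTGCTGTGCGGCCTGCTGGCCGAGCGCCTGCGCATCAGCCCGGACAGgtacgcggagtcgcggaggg

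The second highest row was FGD5-AS1, on the minus strand at chr3:14942779-14948441. It had 54.7, 48.8 and 47.7 TPM, or 50.4 ± 3.76 TPM (SD, n = 3). FGD5, which encodes an activator of the small GTPase CDC42 in endothelial cells, was listed at 0 in the 3 libraries. VPS9D1-AS1, at chr16:89711856-89718165 on the plus strand and wholly inside VPS9D1, had 46.5, 45.8 and 46.2 TPM. VPS9D1 had 11.8, 8.76 and 9.34 TPM, so the ranges of the 2 genes did not overlap. NCBP2-AS2, at chr3:196942674-196943543, starts 81 bases from NCBP2, a subunit of the complex that binds the mRNA cap in the nucleus. It had 37.6, 42.2 and 38.9 TPM, against 48.3, 47.7 and 50.4 TPM for NCBP2. No exons were found under the name NCBP2-AS2 in GENCODE v44, and whether this row is noncoding was not checked.

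ELFN1-AS1, at chr7:1738630-1742310, lies inside ELFN1, which encodes a postsynaptic membrane protein of neurons. It had 32.8, 34.5 and 37.1 TPM and its partner 1.12, 0.633 and 0.842 TPM. ARRDC1-AS1 had 31.0, 31.9 and 31.2 TPM, below the 71.2, 74.3 and 70.8 TPM of ARRDC1, an arrestin-domain adaptor. NNT-AS1 had 25.3, 23.4 and 22.5 TPM, and NNT, the nicotinamide nucleotide transhydrogenase of mitochondria, had 96.6, 93.2 and 85.4 TPM. In each of these pairs the levels of the 2 genes did not overlap between libraries.

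Of the remaining rows among the 12 highest, NUTM2A-AS1 had 26.1 ± 0.890 TPM (SD, n = 3) and NUTM2B-AS1 23.6 ± 2.07 TPM (SD, n = 3). NUTM2A and NUTM2B are copies within one gene family, at 1.37 ± 0.209 and 1.31 ± 0.258 TPM (SD, n = 3), and the counting could have split reads between such copies. IGFL2-AS1 had 24.5 ± 0.361 TPM (SD, n = 3) against 11.8 ± 0.611 TPM (SD, n = 3) for IGFL2. EPB41L4A-AS1 had 21.3 ± 0.435 TPM (SD, n = 3) against 8.21 ± 0.382 TPM (SD, n = 3) for EPB41L4A, a member of the band 4.1 family of cytoskeletal proteins. SVIL-AS1 had 19.4, 22.2 and 22.4 TPM, and SVIL, the actin-binding protein supervillin, had 17.1, 17.3 and 16.2 TPM. Among the 12 rows, 9 stood above their partner in the 3 libraries and 3, NCBP2-AS2, ARRDC1-AS1 and NNT-AS1, stood below it.

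The coverage column, which is not scaled for library size, gave another order for some pairs. NCBP2-AS2 had a coverage of 236, 259 and 214 against 143, 133 and 125 for NCBP2, and ARRDC1-AS1 had 185, 185 and 162 against 86.7, 87.2 and 75 for ARRDC1. SVIL-AS1 had 10.6, 11.1 and 9.32 against 67.0, 66.3 and 56.1 for SVIL. The direction of these 3 pairs thus depended on the column read, and the cause was not tested.

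**Figure D1:**
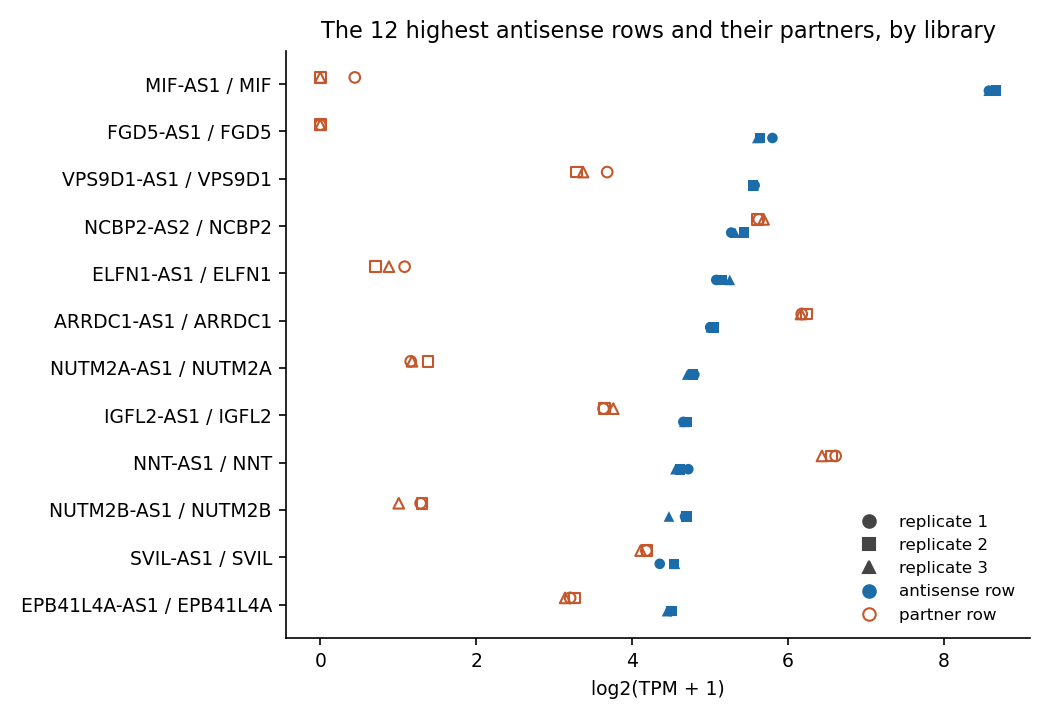
The 12 antisense rows with the highest mean TPM, from the top down, each with its partner. The horizontal axis is log2(TPM + 1). Filled marks are the antisense row, open marks the partner, and the circle, square and triangle are replicates 1, 2 and 3. The 3 libraries of an antisense row lie close together, and 9 of the 12 rows lie to the right of their partner.

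Each antisense row was next set against its partner within a library. In 713 pairs at least 1 of the 2 genes had a mean of 1 TPM or more. The antisense row was the lower of the 2 in all 3 libraries in 655 pairs, or 91.9%, and the higher in 50 pairs, or 7.01%. In 8 pairs the order differed between libraries. The median of log2(antisense TPM + 1) minus log2(partner TPM + 1) was -3.15, -3.07 and -3.06 in replicates 1, 2 and 3, with a mean of -3.09 ± 0.05 (SD, n = 3). An exact permutation test that flips the signs of the 3 medians, two-sided, gave p = 0.25, the smallest value that 3 libraries allow. A pseudocount of 1 was added in every such value, which understates the difference of low genes.

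Both genes of a pair were at 1 TPM or more in all 3 libraries in 189 pairs. In those the median log2 ratio was -2.49 ± 0.11 (SD, n = 3), and in 29 of them the levels lay within 2-fold. The partner was expressed without the antisense row in 488 pairs and the antisense row without the partner in 27. Neither gene met the limit in 412 pairs.

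**Figure D2:**
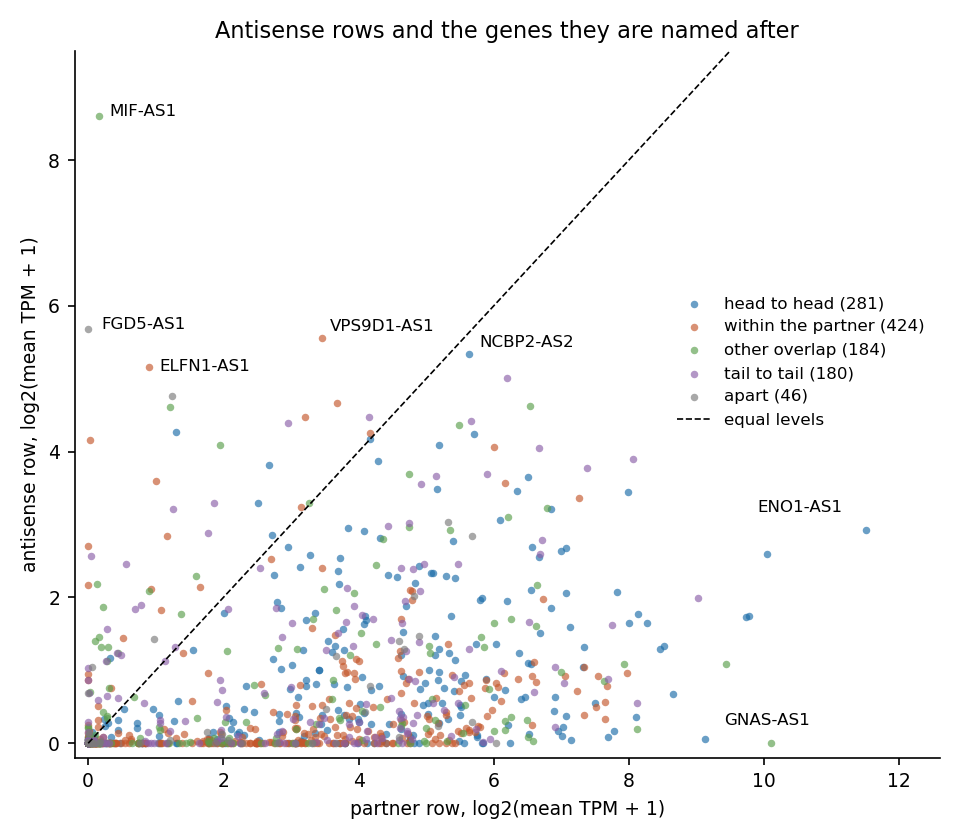
Mean level of each antisense row against its partner in the pairs on opposite strands, both axes as log2(mean TPM + 1) over 3 libraries. Colours give the arrangement of the 2 genes, and the dashed line marks equal levels. Most points lie below the line, while MIF-AS1, FGD5-AS1, ELFN1-AS1 and VPS9D1-AS1 lie well above it.

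The 50 antisense rows above their partner in every library fell into separate kinds of pair. The partner had a mean under 1 TPM in 29 of them, was listed at 0 throughout in 4, which are counted among the 29, and was itself expressed in 20. FGD5-AS1, DLGAP1-AS1, DLGAP1-AS2 and ZKSCAN7-AS1 made up the 4. DLGAP1 encodes a postsynaptic scaffold protein. DLGAP1-AS1 had 5.63, 5.51 and 5.50 TPM and DLGAP1-AS2 had 3.95, 3.63 and 2.87 TPM, while DLGAP1 was listed at 0. Both antisense genes lie inside DLGAP1 and share no exonic base with it in GENCODE v44.

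AGAP2-AS1 had 15.8, 16.9 and 18.0 TPM, and AGAP2, a GTPase-activating protein, was given 0, 0 and 0.0672 TPM. Of the 1500 exonic bases of AGAP2-AS1 in GENCODE v44, 866, or 57.7%, also lie in exons of AGAP2. Without a stated strand setting, reads of the 2 genes in these bases cannot be told apart. ELFN1-AS1 stood above ELFN1 by a log2 ratio of 4.27 ± 0.24 (SD, n = 3). NUTM2A-AS1 and NUTM2B-AS1 followed, with log2 ratios of 3.52 ± 0.12 and 3.42 ± 0.04 (SD, n = 3). By coverage the excess of NUTM2B-AS1 was much smaller, with 18.3, 18.6 and 14.0 against 9.03, 9.02 and 5.55 for NUTM2B. That of NUTM2A-AS1 stayed wide, with 168, 162 and 138 against 7.06, 6.79 and 4.81 for NUTM2A. The cause was not tested. THAP9-AS1, at chr4:82893452-82900916, had 19.4, 18.0 and 17.5 TPM. THAP9, a gene derived from a DNA transposase, starts beside it and had 1.46, 1.39 and 1.55 TPM, for a log2 ratio of 2.97 ± 0.10 (SD, n = 3). Only this one of the 8 pairs with the highest ratios was arranged head to head. Head to head pairs made up 214 of the 713 pairs with either gene at a mean of 1 TPM or more.

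At the opposite end stood antisense rows beside some of the most abundant genes. ENO1-AS1, which starts 149 bases from ENO1, the glycolytic enzyme enolase, had 6.23, 7.66 and 5.81 TPM against 2868, 2864 and 2977 TPM. The log2 ratio was -8.59 ± 0.20 (SD, n = 3), although the antisense row was itself expressed. VIM-AS1 had 1.00, 1.26 and 1.09 TPM beside VIM, the intermediate filament vimentin, at 749, 672 and 661 TPM, for a log2 ratio of -8.36 ± 0.17 (SD, n = 3). BASP1-AS1 had 2.34 ± 0.109 TPM (SD, n = 3), with BASP1 at 879 ± 17.7 TPM (SD, n = 3). By coverage the gap was much smaller, with 15.3, 14.5 and 12.2 for BASP1-AS1 against 171, 165 and 144 for BASP1. The size of this ratio thus depended on the column read, and the cause was not tested. SLC25A5-AS1 had 2.33 ± 0.451 TPM (SD, n = 3), with SLC25A5, an ADP/ATP carrier of mitochondria, at 846 ± 19.2 TPM (SD, n = 3).

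RPL34-AS1 had 0.0583, 0.0236 and 0.0333 TPM beside RPL34, a ribosomal protein gene at 557, 547 and 565 TPM. GNAS-AS1, from an imprinted locus, was listed at 0 in the 3 libraries, while GNAS, the alpha subunit of the stimulatory G protein, had 1088, 1106 and 1108 TPM. By coverage GNAS had 221, 215 and 193, far below RPL34 at 2399, 2326 and 2125, and the cause was not tested. MORF4L2-AS1 had 0.723, 0.475 and 0.610 TPM with MORF4L2, a chromatin protein, at 402 ± 14.5 TPM (SD, n = 3). EZR-AS1 was given 0.283, 0.146 and 0 TPM with EZR, the membrane linker ezrin, at 279 ± 4.89 TPM (SD, n = 3). Of these 8 pairs with the lowest ratios, 5 were head to head. All 8 partners were above 100 TPM, which ratios this low require with a pseudocount of 1. Of the 65 pairs with a partner at 100 TPM or more, 34 were head to head.

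Antisense rows were more often expressed where the partner was more abundant. They were expressed in 3 of 202 pairs, or 1.49%, whose partner was listed at 0, and in 23 of 230, or 10%, where its mean was above 0 and under 1 TPM. The share was 17.4% of 259 pairs for partners from 1 to under 10 TPM, 31.4% of 360 pairs from 10 to under 100 TPM, and 49.2% of 65 pairs at 100 TPM or more. Across the 1116 pairs, Spearman's rho between the 2 mean levels was 0.615. Among the 189 pairs with both genes expressed it was 0.0017. These correlations are across pairs that share libraries, annotation and, where genes overlap, reads, and they are given as a description.

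The arrangement of the pair was read from the deposited strands and ends. Head to head meant 5′ ends at most 1000 bases apart on opposite strands. Of the other pairs, the antisense row was called within the partner where the partner spanned it, tail to tail where the 3′ ends overlapped, other overlap where any bases were shared, and apart otherwise. There were 281 head to head, 424 within the partner, 180 tail to tail, 184 other overlap and 46 apart. The last pair, TUB-AS1 and TUB, had both rows on the same strand. TUB-AS1 was listed at 0 in each library and TUB was given 0, 0 and 0.0497 TPM.

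Antisense rows inside the partner were the least often expressed. Of the 424, 31 or 7.31% were expressed, against 80 or 28.5% of the head to head rows, 51 or 28.3% of the tail to tail rows, 44 or 23.9% of the other overlaps and 10 or 21.7% of the rows apart. Partners of rows within them were expressed in 55.2% of pairs and partners of head to head rows in 74.7%. Rows within the partner had a lower share than head to head rows where the partner was at 1 TPM or more. With the partner listed at 0, 2 of 83 rows within it and 0 of 30 head to head rows were expressed. With the partner above 0 and under 1 TPM, 4 of 105 and 1 of 38 were expressed, or 3.81% and 2.63%. So few expressed rows do not give an order of the 2 arrangements. From 1 to under 10 TPM the shares were 9.91% of 111 rows within the partner and 22.2% of 63 head to head rows. With the partner from 10 to under 100 TPM, 12 of 113 rows within the partner, or 10.6%, were expressed, against 45 of 116 head to head, or 38.8%, and 27 of 67 tail to tail, or 40.3%. Only 2 of 12 rows within partners of 100 TPM or more were expressed, against 20 of 34 head to head rows.

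**Figure D3:**
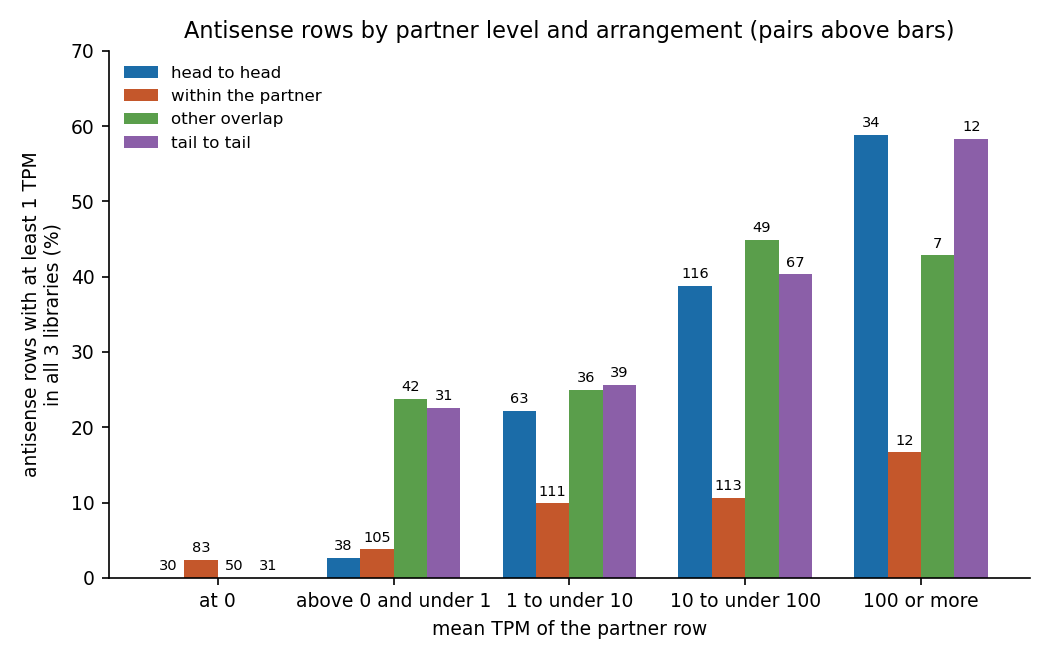
Share of antisense rows with at least 1 TPM in all 3 libraries, in percent, by the mean TPM of the partner and by arrangement. Numbers above the bars count the pairs, and pairs that lie apart are left out because each level held 15 or fewer. At 10 to under 100 TPM the bar for rows within the partner stands at 10.6% and that for head to head rows at 38.8%.

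Few head to head rows stood above their partner. There were 4 such rows in 214 head to head pairs with either gene at a mean of 1 TPM or more, THAP9-AS1, RAB30-AS1, ZNF674-AS1 and SLC12A5-AS1. The count was 14 of 242 for rows within the partner, 14 of 127 for tail to tail, 14 of 102 for other overlaps and 4 of 28 for rows apart. The median distance between 5′ ends of head to head pairs was 268 bases. In 112 of the 281 pairs the antisense gene started upstream of the partner and shared no base at the start, and in 169 the 5′ ends overlapped. The 5′ ends lay within 300 bases in 143.

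Exons of both genes were known from GENCODE v44 for 1019 pairs, or 91.3%. Where no exonic base was shared, 38 of 390 antisense rows, or 9.74%, were expressed. Where some but under 50% of the partner's exons were shared, 148 of 618, or 23.9%, were expressed. In the 11 pairs with 50% or more shared, 6 were expressed, OIP5-AS1, CBR3-AS1 and MIF-AS1 among them. OIP5-AS1 covers 63.2% of the exonic bases of OIP5, a protein of the centromere, and had 22.1, 20.0 and 19.3 TPM against 50.9, 49.9 and 47.7 TPM. Without a stated strand setting, the part of reads from the other strand in shared exons was not tested. Among pairs with either gene at a mean of 1 TPM or more, 13 of 216 without a shared exonic base had the antisense row higher, or 6.02%. With some but under 50% of the partner's exons shared it was 34 of 416, or 8.17%. With 50% or more shared it was 1 of 8. The share over all 713 such pairs, with exons known or not, was 7.01%.

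For 76 partners the tables held more than 1 antisense row, 159 rows in all. Of these partners, 3 had at least 2 expressed antisense rows. They were TFAP2A, a transcription factor, PAXIP1, a chromatin and DNA repair protein, and DLGAP1, and were named after their values were seen. TFAP2A-AS1 and TFAP2A-AS2 had 3.24 ± 0.154 and 2.90 ± 0.299 TPM (SD, n = 3) with TFAP2A at 26.8 ± 0.540 TPM (SD, n = 3). PAXIP1-AS1 and PAXIP1-AS2 had 4.13 ± 0.252 and 1.85 ± 0.113 TPM (SD, n = 3) with PAXIP1 at 12 ± 1.04 TPM (SD, n = 3). In 9 sets a single row was expressed, and in 64 none. Over all antisense rows 19.8% were expressed, and the counts of sets were not compared with what that share would give. NCBP2-AS1 had 0.690, 0.594 and 1.03 TPM, far below NCBP2-AS2. PTOV1-AS2 had 9.66, 11.7 and 11.3 TPM, while PTOV1-AS1 was given 0, 0.185 and 0.208 TPM.

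The 300 bases around the 5′ end were read for all 1133 antisense rows and for 39314 of all rows. Expressed antisense rows had a median of 22 CpG there, and rows listed at 0 had 5. Over all rows the corresponding medians were 23 and 4, with 8 for all rows together. The share of antisense rows expressed was 4.76% of 357 with up to 4 CpG, 13.9% of 187 with 5 to 9, 24.6% of 195 with 10 to 19, 34.8% of 181 with 20 to 29 and 32.9% of 213 with 30 or more. Protein-coding rows in the same classes were expressed in 23.0%, 39.2%, 64.8%, 78.4% and 78.5%, and all rows in 9.10%, 20.1%, 43.9%, 64.7% and 64.6%. The antisense share was lower than both in every class.

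The CpG content differed by arrangement. Head to head antisense rows had a median of 26 CpG, which was 27 in the expressed and 24 in those listed at 0. Rows within the partner had a median of 4, which was 13 in the expressed and 3 in those listed at 0. In the same order, the medians of expressed rows and rows listed at 0 were 24 and 5 for tail to tail rows. They were 20 and 9 for other overlaps and 18.5 and 4 for rows apart. The gap was narrowest among head to head rows, whose windows lie beside the partner's own start. No test was made of these medians, since the rows share libraries and neighbours.

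**Figure D4:**
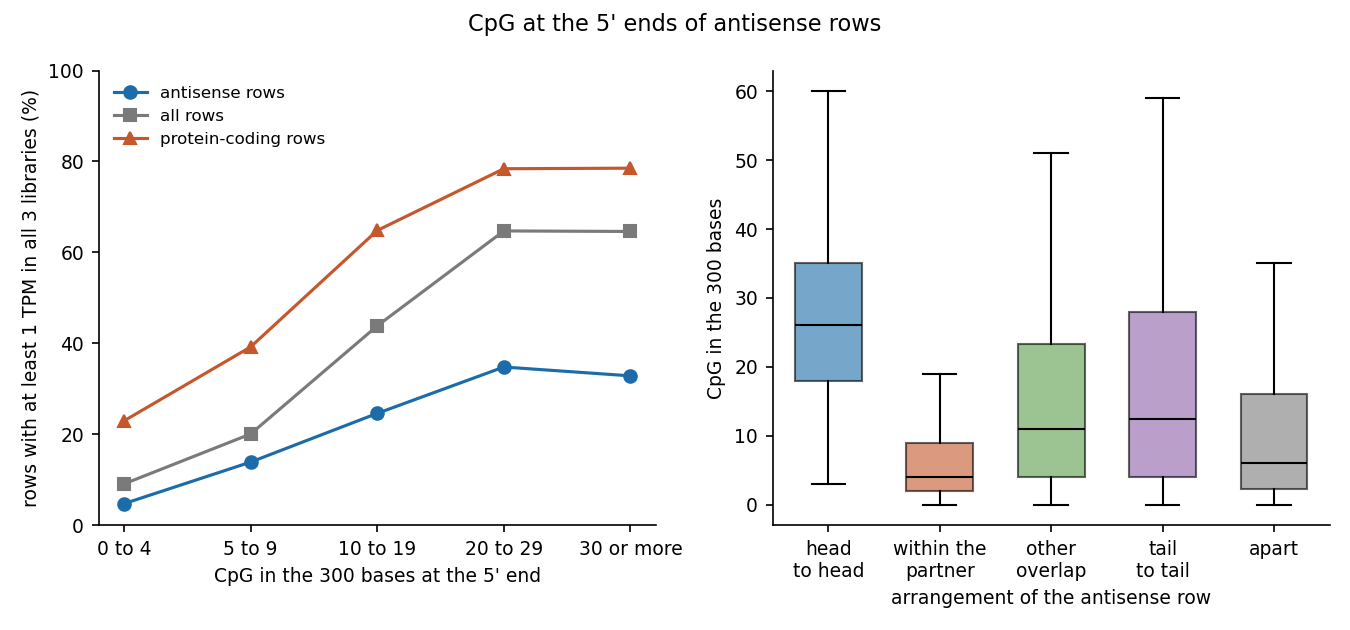
Left, share of rows with at least 1 TPM in all 3 libraries, in percent, by the number of CpG in the 300 bases at the 5′ end, for antisense rows, all rows and protein-coding rows. Right, CpG counts of antisense rows by arrangement, with the median as a line, the quartiles as the box, whiskers to the last value within 1.5 times the box and outliers not drawn. Medians are 26 for head to head rows and 4 for rows within the partner.

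Fixed motifs were searched in the same windows on both strands. GGGCGG, the core of a GC box, was in 63.8% of expressed antisense rows and 24.5% of those listed at 0. In the same classes of all rows the shares were 62.4% and 17.5%, with 36.5% of all rows together. CCGGAAG, as bound by ETS factors, was in 14.3% and 3.79% of the antisense rows and in 15.8% and 3.11% of all rows, with 7.86% together. TATAAA was in 6.25% and 15.1% of the antisense rows and in 7.46% and 19.2% of all rows, with 13.8% together. CCAAT was in 30.4% and 33.0% of the antisense rows and in 36.2% and 35.4% of all rows, with 34.9% together. For each of these motifs but CCAAT the difference between expressed rows and rows at 0 had the same direction over all rows. GGGCGG and CCGGAAG each contain a CpG, so their shares are not independent of the CpG counts. Of the sequences printed above, FGD5-AS1, ELFN1-AS1, THAP9-AS1 and RPL34-AS1 held GGGCGG and GNAS-AS1 did not.

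Antisense RNAs that are often studied in cancer were taken as a list, which was chosen with earlier results of these data known. Of 39 names 38 were rows, and 17 of these, or 44.7%, were expressed, against 19.8% of all antisense rows. The 38 rows had a median mean level of 0.822 TPM, against 0.0660 TPM over all antisense rows. Because of how the list was chosen, these values only describe it. Those at 10 TPM or more in every library were FGD5-AS1, NNT-AS1, OIP5-AS1, THAP9-AS1, PSMA3-AS1 and MAPKAPK5-AS1. PSMA3-AS1 had 12.2, 12.5 and 13.5 TPM, and PSMA3, a subunit of the proteasome, had 171, 164 and 160 TPM. MAPKAPK5-AS1 had 12, 12.8 and 11.0 TPM against 26.1, 26.9 and 24.9 TPM for the kinase MAPKAPK5, and by coverage it was the higher of the 2.

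The other expressed rows of that list were lower. SBF2-AS1 had 6.92 ± 0.402 TPM, DLGAP1-AS1 5.55 ± 0.0729 TPM, TMPO-AS1 5.43 ± 0.224 TPM and MCM3AP-AS1 4.26 ± 0.555 TPM (SD, n = 3 each). LOXL1-AS1 had 3.33 ± 0.220 TPM, ZEB1-AS1 2.55 ± 0.328 TPM, GAS6-AS1 2.15 ± 0.324 TPM and CBR3-AS1 1.57 ± 0.155 TPM (SD, n = 3 each). DLGAP1-AS2 and FOXD2-AS1 were also expressed, the latter with 1.32, 2.00 and 1.79 TPM. SBF2-AS1 and ZEB1-AS1 were below their partners in TPM and above them in coverage. CDKN2B-AS1, known as ANRIL, had 2.68, 2.12 and 2.00 TPM, below CDKN2B, an inhibitor of cell cycle kinases, at 9.71, 9.57 and 7.80 TPM. Listed at 0 throughout were 11 rows, among them GABPB1-AS1, ZEB2-AS1, FEZF1-AS1, HAND2-AS1, MAGI2-AS3, SOX21-AS1, ADAMTS9-AS2, HIF1A-AS1, SPRY4-AS1 and ATP2B1-AS1. The remaining 10 rows were under 1 TPM in at least 1 library without being at 0 throughout, and TTN-AS1 among them was given 1.32, 0 and 0.375 TPM.

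HOX clusters hold the homeobox genes that set position along the body axis, and their antisense genes are named by cluster and have no partner row. Of 8 such rows 6, or 75%, were expressed, against 19.8% of all antisense rows. HOXD-AS2 had 17.5, 20.0 and 18.2 TPM. HOXC-AS3 had 9.05 ± 0.488 TPM, HOXC-AS2 8.26 ± 0.715 TPM, HOXC-AS1 6.44 ± 1.00 TPM and HOXB-AS3 6.97 ± 0.900 TPM (SD, n = 3 each). HOXA-AS2 had 1.20, 1.28 and 1.14 TPM, HOXA-AS3 had 0, 0.205 and 0.163 TPM, and HOXB-AS1 was listed at 0. The other expressed rows without a partner row were PRR34-AS1, with 5.06, 6.64 and 6.98 TPM, and RPARP-AS1, with 4.53, 5.02 and 4.99 TPM. In all, 17 antisense rows had no partner row and 8 of them were expressed.

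A list of antisense rows named after developmental transcription factors was drawn by gene name prefix, from families such as FOX, GATA, PAX, SOX and TBX, and does not hold every such factor. It had 46 rows, the HOX rows among them, of which 13, or 28.3%, were expressed and 23 were listed at 0. Over all antisense rows 19.8% were expressed and 39.6% were listed at 0. Of the 13 expressed rows, 6 were the HOX rows given above. GATA2-AS1 had 21.9, 18.0 and 19 TPM, below GATA2, a factor of blood progenitors, at 43.2, 45.0 and 43.1 TPM. FOXN3-AS1 had 10.3, 7.83 and 7.30 TPM and overlapped the 8.60, 7.69 and 7.36 TPM of FOXN3. PAX8-AS1 had 6.39, 6.12 and 6.07 TPM, above PAX8, a factor of thyroid and kidney, at 1.15, 1.47 and 1.11 TPM. TBX2-AS1 had 2.24, 2.30 and 2.84 TPM, a range that overlapped that of TBX2 at 3.53, 2.86 and 2.66 TPM. FOXD3-AS1 had 1.15, 1.36 and 1.04 TPM, with FOXD3 at 0.186, 0.147 and 0.312 TPM. FOXD2-AS1 and ZEB1-AS1, given above, completed the expressed rows outside the HOX clusters.

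A list of antisense rows named after zinc finger genes held the 39 names that start with ZNF, ZFP, ZBTB or ZSCAN, and leaves out zinc finger genes with other names. Of these rows 10, or 25.6%, were expressed, 15 were listed at 0 and none reached 10 TPM in every library. The shares over all antisense rows were 19.8%, 39.6% and 2.82%. ZNF674-AS1 had 8.78 ± 0.252 TPM (SD, n = 3), above ZNF674 at 4.71 TPM on average. ZNF213-AS1 had 6.72 ± 0.162 TPM, ZFPM2-AS1 4.95 ± 0.132 TPM, ZNF529-AS1 4.30 ± 0.493 TPM, ZNF337-AS1 4.30 ± 0.172 TPM and ZNF503-AS2 3.89 ± 0.346 TPM (SD, n = 3 each). ZNF436-AS1, ZBTB11-AS1, ZSCAN16-AS1 and ZNF687-AS1 lay between 1.32 and 2.6 TPM on average.

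Replicates were compared last. Among antisense rows with a mean from 1 to under 10 TPM, the median coefficient of variation over the 3 libraries was 10.5% (212 rows), against 9.16% for all 5334 rows at that level. From 10 to under 100 TPM it was 6.24% for 37 antisense rows and 5.17% for 6928 rows. Of 250 antisense rows with a mean of 1 TPM or more, 6, or 2.40%, had a range of log2(TPM + 1) above 1, against 1.26% of all rows at that mean.

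CEBPB-AS1 had the widest range, with 2.00, 19 and 1.77 TPM in replicates 1, 2 and 3. Its mean of 7.58 ± 9.86 TPM (SD, n = 3) rested on replicate 2 and was 1.88 TPM without it. CEBPB, a bZIP transcription factor, had its lowest value in that library, with 90.1, 59.9 and 69.4 TPM. The other 5 rows were at 0 in 1 library. RNF219-AS1 was given 0, 5.32 and 4.76 TPM, SH3RF3-AS1 0, 3.35 and 3.29 TPM, and URB1-AS1 0, 2.40 and 2.16 TPM. MELTF-AS1 was given 2.85, 2.51 and 0 TPM and SMIM15-AS1 2.33, 1.78 and 0 TPM.

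In all, 7 antisense rows were listed at 0 in 1 library and at 1 TPM or more in both others, the remaining 2 being CXXC5-AS1 and KMT2E-AS1. The library at 0 was replicate 1 for 4 rows, replicate 3 for 3 and replicate 2 for none. The same counts were not made over all rows, so they cannot be called particular to antisense rows. None of the partners of these rows was at 0 in a library. RNF219 had 17.1, 10.6 and 12 TPM, highest in replicate 1, in which RNF219-AS1 was at 0. SH3RF3 had 8.73, 8.27 and 8.04 TPM, URB1 had 12.4, 11.5 and 10.9 TPM and MELTF had 11.5, 12.7 and 10.4 TPM. Whether a listed 0 was an absence of reads or a failed estimate was not tested.

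**Figure D5:**
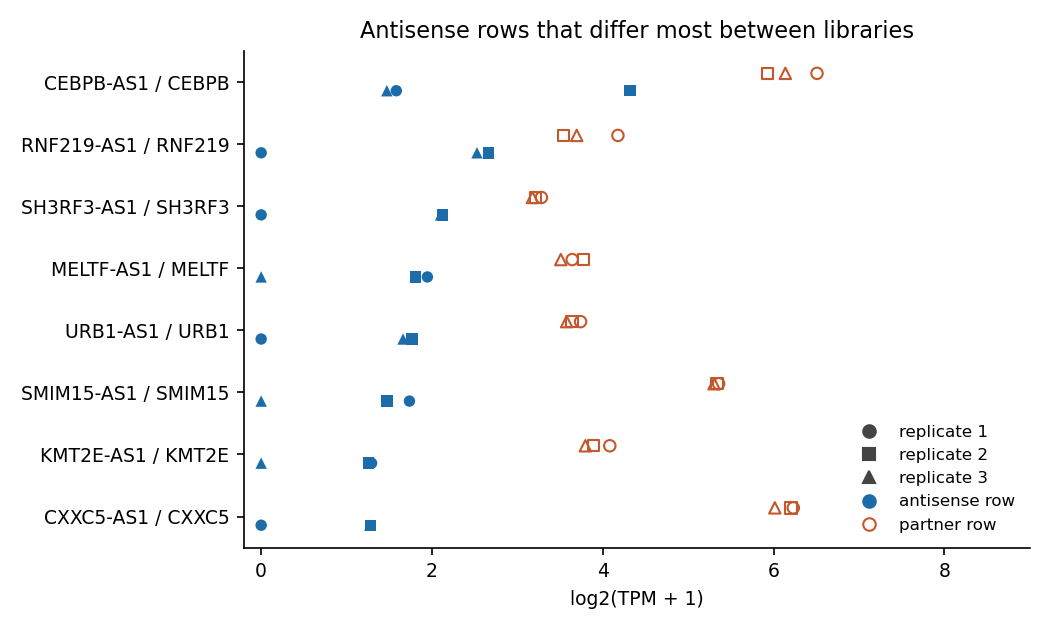
Antisense rows with the widest range between libraries or listed at 0 in 1 of them, with their partners, as log2(TPM + 1). Filled marks are the antisense row, open marks the partner, and the circle, square and triangle are replicates 1, 2 and 3. CEBPB-AS1 is high in replicate 2 only, and in the other 7 rows 1 library lies at 0 while no library of the partner does.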

How the data were processed

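RNA of 3 libraries labelled HepG2 WT was sequenced by the authors as 150 bp paired-end reads, filtered with FastQC 0.11.8 and Trim Galore 0.6.2 and mapped to GRCh38 with STAR 2.6.1a. The submitters' processing notes also name StringTie; its version and role, the annotation and the strand setting are not given in the sources used here. The authors deposited TPM, which is scaled for length and to the same sum in each library. They also deposited FPKM, scaled for length and library size, and coverage, a mean depth per gene without scaling by the authors. No counts were given, which leaves the depth unknown and allows no counting error; the highest coverage per FPKM, a relative measure of depth, was 13.3, 12.8 and 11.5 in replicates 1, 2 and 3.

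The 3 tables were matched on gene, strand, start and end, which left 43389 rows, 39320 of them on references whose name holds no '_'. TPM was used as deposited, and 0 columns belonged to other series. Log2 ratios used a pseudocount of 1. Exons came from GENCODE v44, sequences from GRCh38 and biotypes from the RefSeq table of GRCh38.p14, in which 1053 of 1133 antisense rows and 34955 of all rows were found, 1015 antisense rows with the same start and end. The 300 bases were read from the genome for all rows; 8979 of 8979 that matched a RefSeq promoter were identical to it. RefSeq promoters alone had been planned and held too few antisense rows.

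Named were the 12 highest rows, the 8 highest and 8 lowest log2 ratios, the 5 widest ranges, expressed rows of the lists, rows on their partner's strand, and rows sharing a partner with 1 at a mean of 10 TPM or more; ASMTL-AS1, the same sequence on X and Y, was not described, and some items are not reported here. Rows named outside this rule were chosen after their values were seen. The members and lists were chosen with earlier results of these data known. The calculations were tested on simulated data and used matplotlib 3.10.9, pandas 2.3.3, numpy 2.4.6, scipy 1.17.1 and Python 3.11.15. Alternatives were each replicate left out, other minima, pseudocounts, distances and scalings, and coverage or FPKM in place of TPM.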

Additional observations from a re-analysis of the deposited data

How the results depend on the processing

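No paired analysis was possible because the libraries form 1 group. Expressed antisense rows numbered 231 to 234 with 1 replicate left out, 425 at a minimum of 0.1 TPM and 32 at 10 TPM. Leaving out mitochondrially encoded rows raised every log2 level by 0.32 to 0.33 and gave 245. Rows above their partner numbered 49 to 54 with 1 replicate left out, 68 by coverage, 21 with both genes at 1 TPM or more and 6 where the genes share no base. Without the pairs that share 50% or more of the partner's exons, an alternative chosen after seeing the data, 49 were left. The median log2 ratio was negative under all 11 alternatives, from -4.95 with a pseudocount of 0.1 to -2.32 with pairs in which either gene was above 0. Rows with a range above 1 numbered 4 to 6 with 1 replicate left out, 12 with a pseudocount of 0.1 and 0 at a minimum mean of 10 TPM.

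By arrangement, a minimum of 0.1 TPM gave 138 head to head rows, 100 within the partner, 67 other overlaps, 94 tail to tail and 16 apart. At 10 TPM these were 8, 7, 6, 8 and 2. Head to head limited to 300 bases left 47 expressed rows and raised other overlaps to 74, while 5000 bases left 14 other overlaps. By coverage the log2 ratio changed sign in 6 named pairs, to 0.82 for NCBP2-AS2, 1.09 for ARRDC1-AS1, -2.50 for SVIL-AS1, 1.74 for MAPKAPK5-AS1, 0.43 for SBF2-AS1 and 0.37 for ZEB1-AS1, and the cause was not tested. With no counts, values under about 1 TPM carry an unknown error.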

Other observations

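Alternate and unplaced references held 92 further antisense rows, and all were listed at 0 in the 3 libraries. Of the 1133 antisense rows on the primary references, 32 had a copy of the same name there.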
